A study of Homo sapiens with 6 samples.

Results

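The genes described here are 8 transcription regulators of blood stem cells and of the red cell and platelet lineages: GATA2, TAL1, LMO2, ERG, SOX4, GATA1, KLF1 and NFE2. They were chosen by symbol, and all 8 of 8 had a row of their own among the 6339 rows of the deposited table. The cells were ME-1, an established human line from acute myeloid leukaemia with inv(16), the inversion that makes the fusion protein CBFβ-SMMHC, so both groups carry the fusion. One group received AI-10-49 at 1 µM for 6 h. This small molecule targets the fusion protein and keeps it from binding RUNX1. The other group received the solvent DMSO for 6 h. Each group had 3 libraries, numbered as replicates in the labels, and the design is of 1 cell line at 1 dose and 1 time. RNA abundance was given as FPKM, a fragment count divided by transcript length and by the library's mapped fragments.

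TAL1, a basic helix-loop-helix factor, binds DNA together with E proteins such as TCF3 and TCF12. LMO2 does not touch DNA itself and, with LDB1, bridges TAL1 to a GATA factor on the same regulatory element. GATA2 serves stem cells, progenitors and mast cells. GATA1 takes its place on shared elements as erythroid cells and megakaryocytes mature, where KLF1 acts at CACCC boxes of globin and other red cell genes and NFE2 acts with small MAF proteins. ERG is an ETS factor that maintains stem cells, and SOX4 is an HMG-box factor of lymphoid progenitors that is also active in leukaemia. By the reference annotation the genes lie on chromosomes 3 (GATA2), 1 (TAL1), 11 (LMO2), 21 (ERG), 6 (SOX4), X (GATA1), 19 (KLF1) and 12 (NFE2).

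The sequence just upstream of the start sites was searched for GATA, E-box, CACCC and RUNX motifs. RUNX factors are not among the 8 genes. RefSeq promoter windows (build GRCh38.p14, 250 bases before an annotated start) were matched for 6 of the 8 genes, in 11 windows, and 4 are shown for their motif matches, chosen after the matches were seen. Capitals mark matches to a single motif per window, on either strand: RUNX (TGTGGT or TGCGGT) in TAL1, GATA (GATAA or GATAG with A or T before it) in KLF1, E-box (CAGNTG) in GATA2 and CACCC (CCNCNCCC) in GATA1. The TAL1 window is the second of its 2, at chr1:47231716-47231965 on the minus strand. The KLF1 window is at chr19:12887202-12887451 on the minus strand, and the second GATA2 window is at chr3:128488531-128488780 on the minus strand. The TAL1 and GATA2 windows shown lie downstream of the annotated start that the first window of each gene precedes. The GATA1 window, at chrX:48786340-48786553 on the plus strand, is shown without its last 36 bases, which an annotated exon covers.
TAL1: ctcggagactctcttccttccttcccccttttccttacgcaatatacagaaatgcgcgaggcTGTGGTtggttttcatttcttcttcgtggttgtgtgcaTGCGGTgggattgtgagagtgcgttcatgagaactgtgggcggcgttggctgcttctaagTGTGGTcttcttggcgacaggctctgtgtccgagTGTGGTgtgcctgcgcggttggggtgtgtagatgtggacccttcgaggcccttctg
KLF1: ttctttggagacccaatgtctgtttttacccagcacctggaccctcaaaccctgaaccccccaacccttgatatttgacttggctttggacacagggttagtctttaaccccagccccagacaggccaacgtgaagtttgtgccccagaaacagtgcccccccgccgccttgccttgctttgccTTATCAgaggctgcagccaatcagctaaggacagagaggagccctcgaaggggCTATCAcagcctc
GATA2: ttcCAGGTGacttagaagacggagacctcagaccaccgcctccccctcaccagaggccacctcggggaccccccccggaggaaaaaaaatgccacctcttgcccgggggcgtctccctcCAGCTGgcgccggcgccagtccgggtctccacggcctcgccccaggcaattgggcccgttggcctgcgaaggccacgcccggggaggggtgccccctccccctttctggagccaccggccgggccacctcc
GATA1: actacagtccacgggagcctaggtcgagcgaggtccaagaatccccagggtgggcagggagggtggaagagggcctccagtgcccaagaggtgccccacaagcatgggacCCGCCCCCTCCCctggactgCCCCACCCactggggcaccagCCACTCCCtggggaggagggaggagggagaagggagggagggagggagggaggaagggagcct

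The TAL1 window held 4 RUNX matches, and no other window of the 6 genes held one; 16.3% of all 35093 RefSeq windows of this length had at least 1. The KLF1 window held 2 GATA matches, which begin 66 and 13 bases before its start. GATA matches were found in 4 of the 11 windows (of KLF1, TAL1 and ERG), against 22.3% of all windows. E-box matches were found in 7 of the 11 windows, against 42.5% of all windows, and CACCC matches in 8, against 53.4%. Windows of a gene can share sequence, as 2 of the ERG windows do. In the GATA1 window 2 of the 4 CACCC matches overlap each other. CACCC matches can also overlap other motifs, and a match describes letters and not a bound site.

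All 8 genes fell with AI-10-49, and in each gene all 3 AI-10-49 libraries lay below all 3 DMSO libraries. Of all 6230 rows tested, 49.1% were called lower (limma on log2(FPKM + 1), Benjamini-Hochberg adjusted p under 0.05), and in 51.2% all AI-10-49 libraries lay below all DMSO libraries (96.2% did not overlap in either direction). The table appears to hold rows selected for a difference between these same libraries: 95.3% of tested rows were called in one direction or the other, and 4 rows had a log2 fold change between -0.2 and 0.2. A call in this table is therefore not independent evidence of change, and the description rests on the sizes of change. The median log2 fold change of the 8 genes was -0.98, against -0.28 for all tested rows. The latter mixes falling and rising rows and does not stand for an unchanged gene. In these bulk samples, less RNA per cell and fewer cells of a type cannot be told apart.

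**Figure D1:**
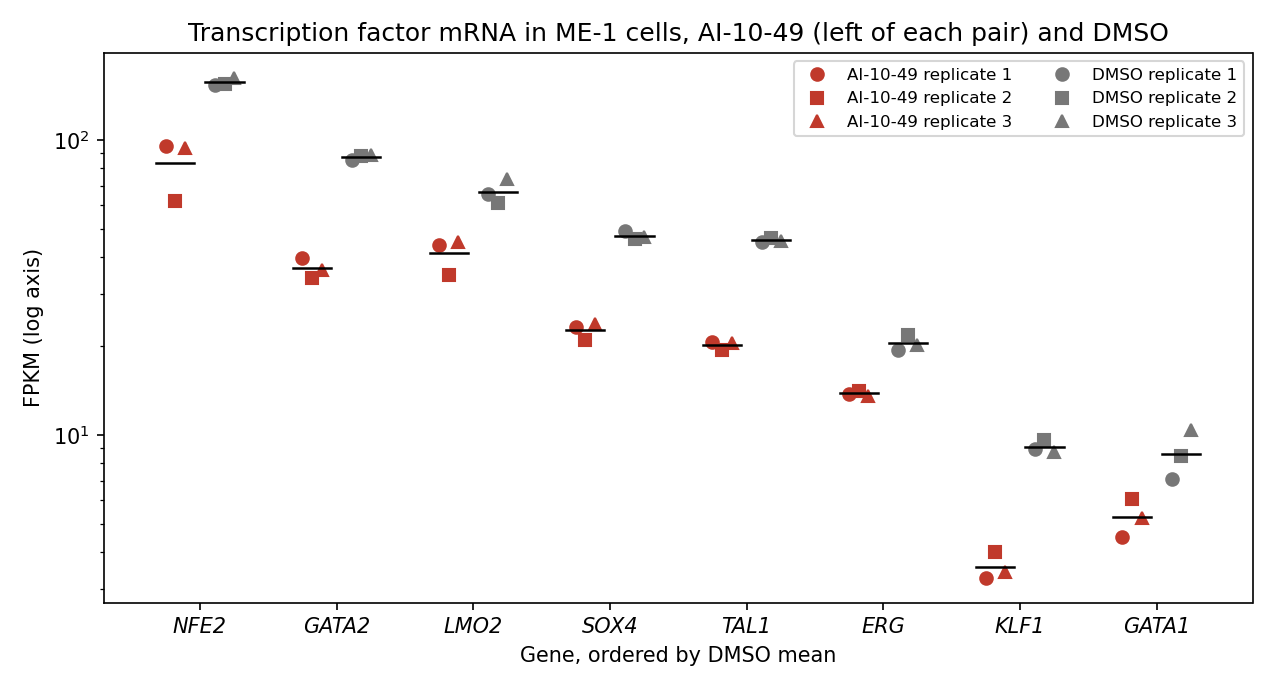
FPKM on a log axis of the 8 genes in each library (points, shaped by replicate number), with AI-10-49 in red on the left of each pair, DMSO in grey on the right and group means as black lines. In every gene the 3 red points lie below the 3 grey points, and NFE2 of AI-10-49 replicate 2 (62.0 FPKM) sits apart from the other AI-10-49 libraries (95.2 and 93.6 FPKM).

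AI-10-49 replicate 2 read low in abundant rows throughout the table. Its highest value was 159 FPKM, against 1843 and 1877 FPKM in AI-10-49 replicates 1 and 3 and 1717 to 2028 FPKM in the DMSO libraries, while the median row was alike in all 6 libraries (14.3 to 14.7 FPKM). Of 280 rows at 100 FPKM or more in both other AI-10-49 libraries, all 280 were lower in replicate 2. Among the 8 genes it was the lowest AI-10-49 library in 5 (GATA2, TAL1, LMO2, SOX4 and NFE2) and the highest in 3 (ERG, GATA1 and KLF1). Each of the 8 genes is therefore also given without that library and after quantile normalization, which gives every library the same distribution, and other genes where these move the value by over 1.5 times.

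GATA2 had the lowest log2 fold change of the 8 genes with the deposited values, and after quantile normalization KLF1 and TAL1 were lower. GATA2 stood at 39.7, 34.1 and 36.2 FPKM with AI-10-49, against 85.7, 88.5 and 89.2 FPKM with DMSO. The groups were far apart, with every AI-10-49 library under every DMSO library by more than 45 FPKM. Means were 36.7 ± 2.85 FPKM with AI-10-49 and 87.8 ± 1.88 FPKM with DMSO (SD, n = 3 each), so that 41.8% of the DMSO level was left. On the log2 scale the change was -1.24 ± 0.11 (SE, limma adjusted p = 2.97e-07), and 4.19% of tested rows had a lower one. Without AI-10-49 replicate 2 it was -1.19, and after quantile normalization -0.99.

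TAL1 had 20.7, 19.3 and 20.4 FPKM with AI-10-49, against 45.1, 46.4 and 45.3 FPKM with DMSO. Its libraries were the tightest of the stem cell factors relative to the gap between the groups, with means of 20.1 ± 0.72 FPKM with AI-10-49 and 45.6 ± 0.70 FPKM with DMSO (SD, n = 3 each). The log2 fold change was -1.14 ± 0.07 (SE, limma adjusted p = 1.19e-08), and it was -1.11 without AI-10-49 replicate 2 and -1.07 after quantile normalization. An antisense gene overlaps TAL1 in the reference annotation, as one does SOX4, and without strand information its reads cannot be told from those of the gene itself.

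LMO2, the adaptor between TAL1 and GATA factors, fell less. It stood at 44.2, 34.9 and 44.99 FPKM with AI-10-49, against 65.7, 61.0 and 73.4 FPKM with DMSO. The groups did not overlap, AI-10-49 replicate 2 was the low one of its group, and 62.0% of the DMSO mean was left. The log2 fold change was -0.68 ± 0.12 (SE, limma adjusted p = 0.000177), with a 95% interval from -0.95 to -0.42. It was -0.57 without AI-10-49 replicate 2 and -0.47 after quantile normalization.

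SOX4 had 23.2, 20.9 and 23.8 FPKM with AI-10-49, against 49.1, 46.2 and 46.8 FPKM with DMSO. The AI-10-49 libraries lay within 3 FPKM of each other, as did the DMSO libraries, and 47.8% of the DMSO mean was left. Its log2 fold change was -1.03 ± 0.08 (SE, limma adjusted p = 7.55e-08), or -0.98 without AI-10-49 replicate 2 and -0.95 after quantile normalization.

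ERG had the smallest change of the 8 genes with the deposited values, and after quantile normalization LMO2 (-0.47) and NFE2 (-0.42) changed less. ERG stood at 13.8, 14.1 and 13.6 FPKM with AI-10-49, against 19.4, 21.7 and 20.1 FPKM with DMSO. The groups were separate and the AI-10-49 libraries nearly equal, and 67.7% of the DMSO mean was left. Its log2 fold change was -0.53 ± 0.06 (SE, limma adjusted p = 6.08e-06), and 30.7% of tested rows had a lower one. Quantile normalization left it at -0.54, the value for ERG without AI-10-49 replicate 2 as well.

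KLF1 and GATA1, the erythroid factors, were the least abundant of the 8 and moved by different amounts. KLF1 had 3.28, 4.004 and 3.42 FPKM with AI-10-49, against 8.92, 9.60 and 8.76 FPKM with DMSO. GATA1 had 4.49, 6.07 and 5.24 FPKM with AI-10-49, against 7.06, 8.503 and 10.4 FPKM with DMSO. KLF1 was widely separated between the groups, while GATA1 varied more, with a gap of less than 1 FPKM between the highest AI-10-49 and the lowest DMSO library. KLF1 was left at 39.2% of its DMSO mean, the lowest share of the 8 genes, and its log2 fold change was -1.15 ± 0.08 (SE, limma adjusted p = 4.35e-08). On the log2(FPKM + 1) scale the change of genes this low is understated, and with a pseudocount of 0.1 that of KLF1 was -1.33. GATA1 was left at 60.9% of its DMSO mean, with a log2 fold change of -0.62 ± 0.12 (SE, limma adjusted p = 0.000328). Without AI-10-49 replicate 2 KLF1 was at -1.21 and GATA1 at -0.71, and after quantile normalization KLF1 was at -1.19 and GATA1 at -0.65.

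NFE2 was the most abundant of the 8 genes in both groups, and its DMSO level was above that of 97.0% of tested rows. It stood at 95.2, 62.0 and 93.6 FPKM with AI-10-49, against 154, 155 and 162 FPKM with DMSO. The groups did not overlap, but AI-10-49 replicate 2 was far below its group, as in other abundant rows. The log2 fold change of -0.93 ± 0.24 (SE, limma adjusted p = 0.00255) had the widest interval of the 8 genes, from -1.44 to -0.41. Without AI-10-49 replicate 2 it was -0.73 ± 0.06 (SE, limma adjusted p = 1.10e-06). After quantile normalization it was -0.42, with 95.3, 103 and 93.3 FPKM with AI-10-49, against 131, 133 and 125 FPKM with DMSO. NFE2 was lower with AI-10-49 under each of these settings, and its size differed between them by more than 1.5 times.

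**Figure D2:**
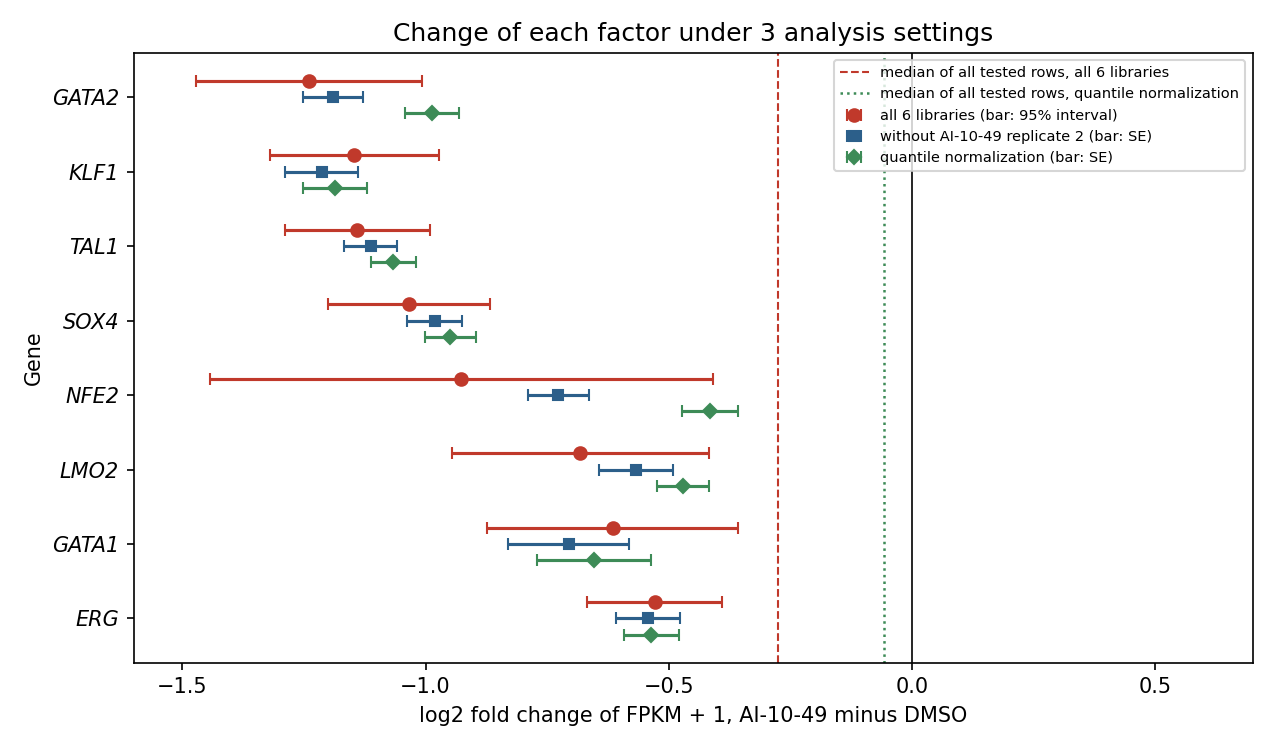
Log2 fold change of FPKM + 1 (horizontal axis, AI-10-49 minus DMSO) of each gene with all 6 libraries (red, 95% interval), without AI-10-49 replicate 2 (blue, SE) and after quantile normalization (green, SE). Dashed and dotted lines mark the median of all tested rows with the deposited values (-0.28) and after quantile normalization (-0.06), and all 8 genes lie below both.

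The median of all tested rows was -0.06 on the log2 scale after quantile normalization and -0.28 with the deposited values. Relative to these medians GATA2 changed by -0.93 after quantile normalization and by -0.96 with the deposited values. For KLF1 these differences were -1.13 after quantile normalization and -0.87 with the deposited values, and for NFE2 they were -0.36 and -0.65. All 8 genes lay below the table's median in both. With 49.1% of tested rows called lower and 46.2% called higher, that median does not stand for an unchanged gene. By exact permutation of the library labels (two-sided) p was 0.1 for each gene, the smallest that 3 libraries against 3 can give.

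**Figure D3:**
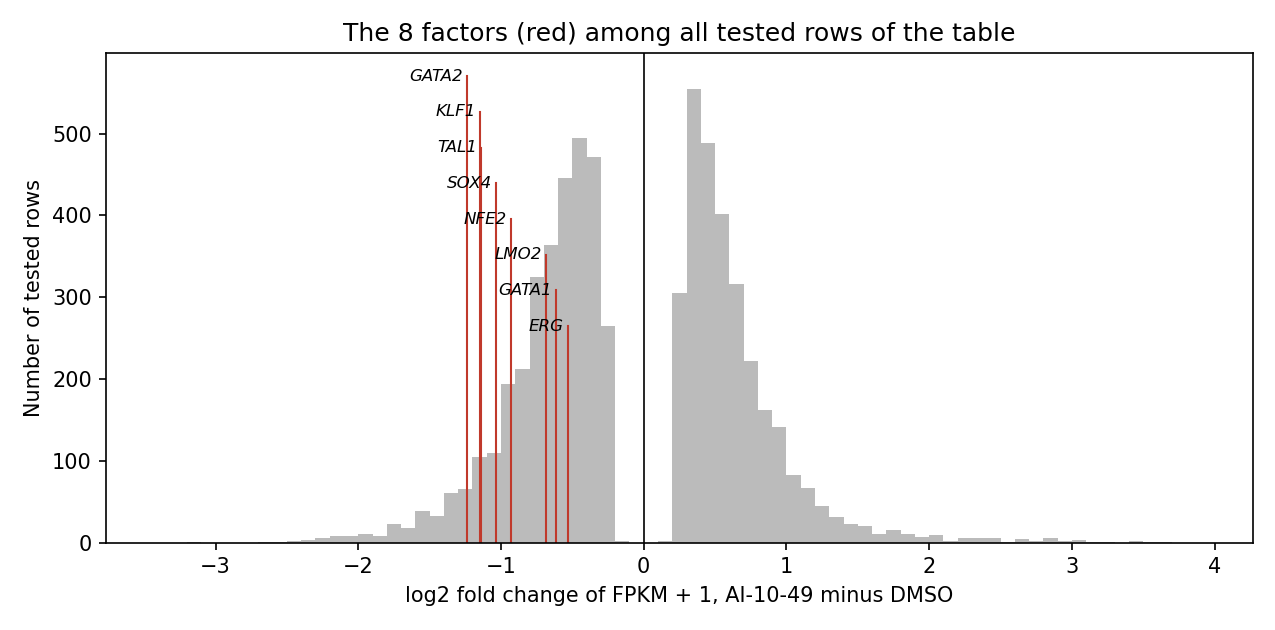
Number of tested rows (vertical axis) by log2 fold change of FPKM + 1 in steps of 0.1 (horizontal axis), with the 8 genes as red lines. The table has almost no rows near 0 (4 between -0.2 and 0.2), and the 8 genes lie in the falling part, from -1.24 (GATA2) to -0.53 (ERG).

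The order of the genes by level differed between the groups at 2 places. With AI-10-49 the order of means was NFE2, LMO2, GATA2, SOX4, TAL1, ERG, GATA1 and KLF1. With DMSO it was NFE2, GATA2, LMO2, SOX4, TAL1, ERG, KLF1 and GATA1. GATA2 was below LMO2 in each of the 3 AI-10-49 libraries, although the ranges of the genes overlapped, and above LMO2 in each of the 3 DMSO libraries, where they did not. GATA1 was above KLF1 in each AI-10-49 library, with ranges that did not overlap, and with DMSO the ranges of KLF1 and GATA1 overlapped. SOX4 and TAL1 also overlapped with DMSO and not with AI-10-49. FPKM is scaled to transcript length, so levels of different genes in a library can be compared.

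Ratios between the genes put a size on these differences. The FPKM ratio of GATA1 to KLF1 was 1.37, 1.51 and 1.53 in the AI-10-49 libraries, against 0.79, 0.89 and 1.18 in the DMSO libraries. It was higher in every AI-10-49 library (exact two-sided permutation p = 0.1, the smallest possible). The FPKM ratio of GATA2 to GATA1 was 8.86, 5.63 and 6.90 in the AI-10-49 libraries, against 12.1, 10.4 and 8.61 in the DMSO libraries. These ranges overlapped (exact two-sided permutation p = 0.2). On the log2(FPKM + 1) scale the same ratio fell by 0.62 and did not overlap (exact two-sided permutation p = 0.1), so the separation depends on the pseudocount.

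**Figure D4:**
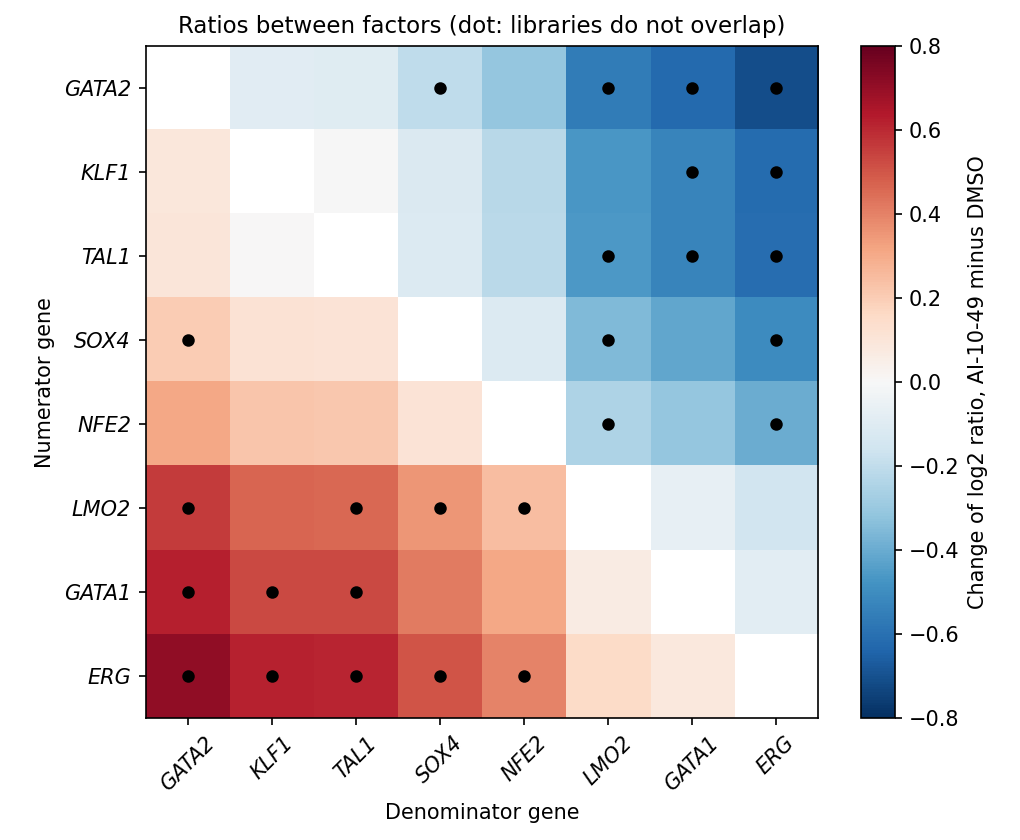
Change in the log2 ratio of FPKM + 1 of the row gene to the column gene (colour, AI-10-49 minus DMSO), with genes ordered by their own log2 fold change and a dot where the 3 AI-10-49 libraries do not overlap the 3 DMSO libraries. With all libraries and a pseudocount of 1 the ratio of GATA2 to ERG changed most (-0.71) and that of TAL1 to KLF1 least (0.01).

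Of the 28 pairs of genes, 13 had a log2 ratio whose libraries did not overlap between the groups. Among all pairs of rows called lower, 52.2% did not overlap, so the share among the 8 genes was not above that of other falling rows. Relative to ERG, GATA2 changed by -0.71 and TAL1 by -0.61, and ERG relative to SOX4 by 0.50. Relative to LMO2, GATA2 changed by -0.56 and TAL1 by -0.46. Ratios among GATA2, TAL1 and KLF1 overlapped between the groups, with differences of -0.10 (GATA2 to TAL1), -0.09 (GATA2 to KLF1) and 0.01 (TAL1 to KLF1). Without AI-10-49 replicate 2 the ratio of TAL1 to KLF1 changed by 0.10 and did not overlap, and that of GATA2 to KLF1 changed by 0.02. With a pseudocount of 0.1 the log2 ratio differences were 0.15 (TAL1 to KLF1) and 0.07 (GATA2 to KLF1). At that pseudocount ERG to KLF1 changed most, by 0.77, against -0.70 for GATA2 to ERG. The smallest exact permutation p over the pairs was 0.1, or 0.215 after Benjamini-Hochberg adjustment over 28 pairs, and this design cannot go below it. Without AI-10-49 replicate 2, 21 pairs did not overlap, with only 2 AI-10-49 libraries left to compare. The share over other falling rows was not computed without that library, so the 52.2% does not apply to it.

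Partners in the TAL1 and GATA complexes went both ways. Of 25 listed partners and cofactors 16 had a tested row, and 8 fell and 8 rose, with a median log2 fold change of -0.12. Among all tested rows 49.1% fell and 46.2% rose. GFI1B, a repressor of the erythroid and megakaryocytic lineages, had 9.23, 10.003 and 9.22 FPKM with AI-10-49, against 36.6, 35.9 and 39.3 FPKM with DMSO. Its groups lay far apart, and its log2 fold change of -1.87 ± 0.07 (SE, limma adjusted p = 1.15e-10) was larger than that of any of the 8 genes. SSBP4, of the family of proteins that stabilise LDB1, fell by 1.05 on the log2 scale. The E protein genes did not move together, and TCF4 rose by 1.57, with 40.3, 32.2 and 42.1 FPKM with AI-10-49, against 12.3, 12.0 and 11.9 FPKM with DMSO. LDB1, TCF3 and TCF12, named after their values were seen because they make up the core of the complex with TAL1 and LMO2, changed by -0.76, -0.51 and 0.55, with LDB1 at -0.36 after quantile normalization.

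Of 8 listed partners and relatives of NFE2 4 had a tested row, of which 3 rose and 1 fell. Over all tested rows 46.2% rose and 49.1% fell. MAFF, a small MAF protein with which NFE2 can pair, rose to 56.1, 44.1 and 56.5 FPKM with AI-10-49, against 5.76, 5.89 and 6.89 FPKM with DMSO. Its log2 fold change was 2.89 ± 0.10 (SE, limma adjusted p = 8.05e-11), in the opposite direction to NFE2. NFE2L2, which encodes the oxidative stress factor NRF2, changed by 0.78 and the related NFE2L1 by -0.58.

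Of 25 other stem cell regulators 11 had a tested row, and 5 fell, 4 rose and 2 did not pass. Their median log2 fold change was -0.41 with the deposited values and 0.08 after quantile normalization. Over all tested rows 49.1% fell and 46.2% rose. MYB, a factor of progenitor growth, had 127, 74.5 and 129 FPKM with AI-10-49, against 185, 180 and 184 FPKM with DMSO. Its log2 fold change of -0.77 was -0.51 without AI-10-49 replicate 2 and -0.18 after quantile normalization, and its call was lost when any single DMSO library was left out (limma adjusted p from 0.099 to 0.108). The repressor gene GFI1 changed by -0.67, or by -0.19 after quantile normalization. IKZF1, a lymphoid factor, changed by -0.65 and by -0.52 after quantile normalization. The 4 that rose, named after their values were seen, were MLLT3 (0.48), PBX3 (0.45), BCL11A (0.40) and NRIP1 (0.34). HHEX, also named afterwards, was at 0.35 and did not pass with all libraries. It was at 0.72 without AI-10-49 replicate 2 (limma adjusted p = 1.82e-06) and at 0.86 after quantile normalization.

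The erythroid list, which holds genes of haemoglobin, haem synthesis and the red cell membrane that GATA1 and KLF1 are known to serve, had a tested row for 20 of 58 genes. Of these 13 fell, 5 rose and 2 did not pass, with a median log2 fold change of -0.42. Over all tested rows 49.1% fell and 46.2% rose. HBQ1, a minor globin gene, had 2.09, 1.24 and 0.74 FPKM with AI-10-49, against 4.48, 4.93 and 7.47 FPKM with DMSO, a log2 fold change of -1.51. The other globin genes of the list were not analysed here. E2F2, a cell cycle factor of late erythroid cells, and STEAP3, an iron reductase, fell by 1.08 and 1.04. Of the haem synthesis genes with a tested row (UROS, UROD, CPOX and FECH, named after their values were seen) all 4 fell, by 0.30, 0.53, 0.36 and 0.35. The 5 that rose, also named after their values were seen, were the mitophagy receptor gene BNIP3L (0.99), the red cell membrane genes ERMAP (0.93) and RHD (0.70), the biliverdin reductase gene BLVRB (0.38) and the erythropoietin receptor gene EPOR (0.35). GYPC, a glycophorin gene, was at 0.48 and did not pass with all libraries. It was at 1.16 without AI-10-49 replicate 2 (limma adjusted p = 3.08e-07). Summed FPKM of the 21 list genes with a row was 932, 431 and 910 with AI-10-49, against 757 to 839 with DMSO. GYPC alone had 486, 114 and 476 FPKM of the AI-10-49 sums.

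The megakaryocyte list had a tested row for 17 of 46 genes, and 14 fell and 3 rose, with a median log2 fold change of -0.52. The shares over all tested rows were 49.1% lower and 46.2% higher. The thrombin receptor genes F2RL3 and F2R changed by -1.16 and -1.10, and the ADP receptor gene P2RY1 by -1.02. F2R had 9.79, 11.2 and 10.3 FPKM with AI-10-49, against 23.9, 23.3 and 22.9 FPKM with DMSO. These receptor genes were far apart between the groups.

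Of 28 stem and progenitor surface and marker genes 17 had a tested row. Of these 14 fell, 2 rose and 1 did not pass, with a median log2 fold change of -0.72. The shares over all tested rows were 49.1% lower and 46.2% higher. NPR3, a natriuretic peptide receptor gene, fell by 1.203. KIT, the stem cell factor receptor gene, had 41.3, 36.3 and 42.2 FPKM with AI-10-49, against 85.9, 81.7 and 80.8 FPKM with DMSO. CD200, which encodes a surface ligand that restrains immune cells, was among the risers, at 0.92. Of 20 eosinophil, basophil and mast cell genes, a lineage that GATA2 and GATA1 serve, 14 had a tested row, 13 fell and 1 did not pass, with a median of -1.18. CLC, PRG2 and RNASE2 led that list, at -2.67, -1.92 and -1.76.

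Most genes with a tested row on marker lists of other cell types fell as well, and their part in the results above was not tested. A tested row was found for 9 of 19 myeloid, 3 of 12 T and NK cell and 4 of 10 B lineage genes. Of the endothelial and fibroblast list, 4 of 12 genes had one. The other genes of these lists are not covered. Over all tested rows 49.1% fell. Summed FPKM of 9 myeloid markers was 144 to 178 with AI-10-49, against 245 to 280 with DMSO, and 8 of the 9 fell. MS4A3, a granulocyte progenitor gene, and CEBPA changed by -0.99 and -1.58, and CEBPB by 1.40. Summed FPKM of 3 T and NK cell markers was 17.3 to 17.7 with AI-10-49, against 34.3 to 35.9 with DMSO, and all 3 fell, CD3D by 0.93, PRF1 by 0.80 and CD3E by 0.62. For 4 B lineage markers the sum was 75.2 to 116 FPKM with AI-10-49, against 244 to 284 FPKM with DMSO, and all 4 fell, with IGLL1 at -1.39, CD79B at -1.37 and VPREB1 at -0.97. After quantile normalization IGLL1 was at -0.81 and the endothelial gene ESAM at -0.14. For 4 endothelial and fibroblast list genes it was 46.4 to 54.4 FPKM with AI-10-49, against 75.8 to 84.3 FPKM with DMSO, and all 4 fell, with CLDN5 at -2.23, PECAM1 at -0.84 and ESAM at -0.39. CD3D, IGLL1 and ESAM held most of the sums of their lists, with AI-10-49 means of 16.4, 88.4 and 45.6 FPKM. No measured list gene was at 0 in any library. PRF1, CD3E and VPREB1 averaged 0.45, 0.56 and 0.85 FPKM with AI-10-49, against 1.53, 1.36 and 2.65 FPKM with DMSO. At these levels the size of change depends on the pseudocount. With a pseudocount of 0.1 the log2 fold changes were -1.56 (PRF1), -1.30 (CD3E) and -1.535 (VPREB1).

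**Figure D5:**
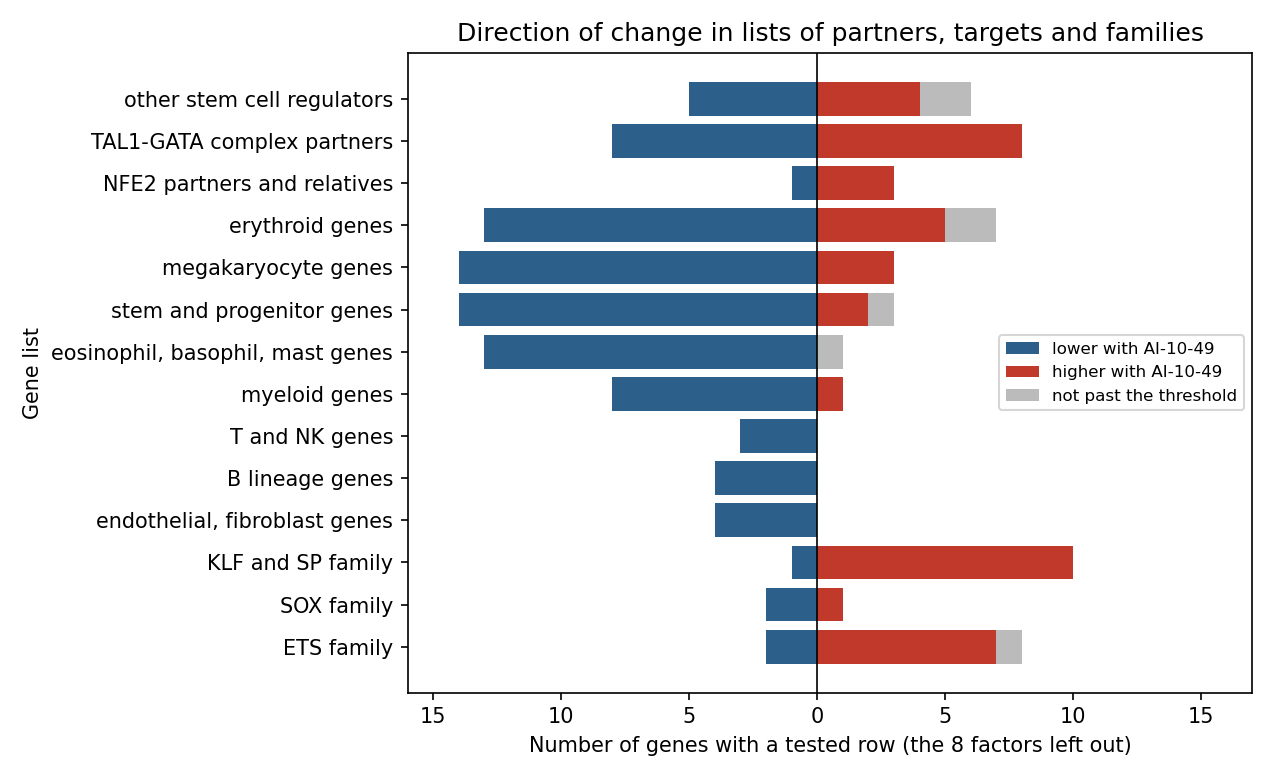
Number of genes (horizontal axis) in each list of partners, targets, markers and family members that fell (blue bars, left), rose (red bars, right) or did not pass the threshold (grey) with AI-10-49, the 8 genes themselves left out. The megakaryocyte list has 14 lower of 17, and the TAL1-GATA complex list is even at 8 and 8. The KLF and SP family has 10 higher of 11. Among all tested rows 49.1% were lower and 46.2% higher.

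Within their own families, KLF1 and ERG moved against most relatives with a tested row. Of 11 other KLF and SP genes 10 rose and 1 fell, with a median log2 fold change of 0.58. Over all tested rows 46.2% rose and 49.1% fell. KLF3, a repressor that binds the same CACCC boxes as KLF1, had 27.7, 26.3 and 28.1 FPKM with AI-10-49, against 8.99, 9.31 and 8.36 FPKM with DMSO (log2 fold change 1.52 ± 0.06 SE, limma adjusted p = 5.46e-10). KLF6 rose by 1.51, and KLF16 was the 1 that fell, by 1.55. Of 10 other ETS genes 7 rose, 2 fell and 1 did not pass, with ETV3 at 0.77 and ELK1 at -0.57. The called genes ERF (0.33) and ELK4 (-0.24), named after their values were seen, had groups that overlapped. ELF1, whose groups overlapped as well, changed by 0.76, or by 1.11 without AI-10-49 replicate 2. This log2 fold change of ELF1 lost its call when AI-10-49 replicate 1, DMSO replicate 2 or DMSO replicate 3 was left out (limma adjusted p = 0.0527, 0.0605 and 0.0535). Of 3 other SOX genes SOX18 and SOX12 fell with SOX4, by 1.73 and 1.55, and SOX13 changed by 0.35. The log2 fold change of SOX13 lost its call without DMSO replicate 3 (limma adjusted p = 0.0534). LMO4, the 1 relative of LMO2 with a tested row, fell by 0.86. No other GATA gene and no other TAL1 relative on the lists had a tested row.

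The genes with the most similar profile over the 6 libraries were found by the root mean square difference of log2(FPKM + 1) values, each profile centred on its DMSO mean. For SOX4 the nearest rows were KIT (difference 0.016) and SLC20A1, a phosphate transporter gene (0.036). For GATA2 they were SYNGR2 (0.039) and RPIA (0.047), and for TAL1 they were KCNH2 (0.030) and UBE2G2 (0.040). For LMO2 they were SPINK2 (0.038), a gene of stem and progenitor cells, and CXXC5 (0.039). For NFE2 they were GRN (0.029), which encodes progranulin, and RCC2 (0.034). For ERG they were ATP7B (0.012) and LRP4 (0.019), for GATA1 they were DUOXA2 (0.018) and DNA2 (0.074), and for KLF1 they were LOC80054 and JRK (0.047 each). These profiles include AI-10-49 replicate 2, which read low in abundant rows. Under the other settings the log2 fold change ranged from -0.93 to -0.42 for NFE2, -0.93 to -0.38 for GRN and -0.93 to -0.51 for RCC2. It ranged from -0.69 to -0.47 for LMO2, -0.74 to -0.53 for SPINK2 and -0.68 to -0.21 for CXXC5. For SOX4 the range was -1.06 to -0.95, for KIT -1.05 to -0.78 and for SLC20A1 -1.08 to -0.87. After quantile normalization SOX4 was at -0.95 and KIT at -0.78, so their likeness depends on the setting. The likeness is on the log2(FPKM + 1) scale, where genes under about 1 FPKM change less than their FPKM do. KCNH2 (0.36 FPKM with AI-10-49 and 2.04 with DMSO on average), ATP7B (0.40 and 1.04) and LOC80054 (0.46 and 2.17) are such genes, so their fold changes in FPKM are larger than those of TAL1, ERG and KLF1.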

How the data were processed

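The authors' deposited table gives FPKM, 1 column for each of 6 ME-1 libraries (90 bp paired-end reads per the series' design text). Bowtie2 2.1.0, Cufflinks 2.2.0, Cuffdiff and the build hg19 are listed in the submitters' processing notes, and the annotation, counting options and rule that selected the rows are not given in the sources used here. Among the 6339 rows, 198 hold more than 1 gene name, and 23 names occur on 2 rows. FPKM are not counts and the depth of each library is unknown, so precision rests on the spread between 3 libraries a group. The 6230 rows averaging 1 FPKM or more in either group (109 were left out) were analysed as log2(FPKM + 1), AI-10-49 minus DMSO. The fit was by limma 3.58.1 in R 4.3.3 (mean-variance trend, two-sided, Benjamini-Hochberg over all tested rows, threshold 0.05). It was also run on simulated data, with the spread of the DMSO libraries in both groups and a minority of rows changed. That run does not show how the fit handles AI-10-49 replicate 2 or a table where most rows differ. Single values had exact permutation tests (SciPy 1.17.1). The 8 genes, the gene lists and the tests were chosen with earlier results of these data known. Named genes were the 8, up to 3 called genes of largest change from each of 17 lists (142 of 325 listed genes had a tested row) and the 2 nearest profiles per gene, with other names marked where used. Alternatives were other pseudocounts (0.1, 0.5) and filters (none, 5 FPKM), quantile normalization, median scaling, no trend, a replicate block and leaving out each library. Promoter windows are RefSeq's, build GRCh38.p14, and GENCODE 29 gave overlapping exons. LMO2 and NFE2 had no entry among the windows used.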

Additional observations from a re-analysis of the deposited data

How the results depend on the processing

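All alternatives were planned, but with earlier results of these data known. The setting that joins quantile normalization with leaving out AI-10-49 replicate 2 is aimed at that library. Each of the 8 genes stayed lower and called in all 120 values across the alternatives. Over the whole table the number of rows called lower was 2908 to 3175 without single libraries and 2643 to 3109 under the other settings. The share of other falling rows that kept their call throughout was not computed. In a table that appears selected for a difference, a kept call does not set the 8 genes apart. When single libraries were left out, the log2 fold change of GATA2 ranged from -1.30 to -1.19, NFE2 from -1.03 to -0.73 and LMO2 from -0.75 to -0.57; under the other settings NFE2 ranged from -0.93 to -0.42 and LMO2 from -0.69 to -0.47, with the values nearest 0 under quantile normalization. Without 1 library, 13 to 21 pairs of genes had ratios that did not overlap, the 21 without AI-10-49 replicate 2. The share over other falling rows was not computed at these settings. The replicate block left 8 genes lower, and the number of tested rows called lower was 3103 and the number of tested rows called higher 2912, against 3060 and 2879 without it; same-numbered libraries deviated together with r of -0.15, 0.147 and 0.247 across rows, so the numbers were not taken as pairs. The filter at 5 FPKM, which tests fewer genes, left 3 erythroid, 6 KLF and SP and 0 SOX genes higher and 1 T and NK, 2 B lineage and 0 LMO genes lower. With quantile normalization and without AI-10-49 replicate 2, 0 SOX genes were higher. Leaving out single libraries gave 5 to 7 ETS genes higher, 1 to 3 ETS genes lower and 0 to 1 SOX genes higher. The log2 fold change of SPI1 (-0.47, not called with all libraries) was 0.081 under quantile normalization and 0.065 with AI-10-49 replicate 2 also left out; the cause was not tested. For the 156 other named or listed genes, 2275 of 2311 values kept direction and side of the threshold, 16 lost the call, 18 gained one and 2 reversed. Depth is unknown and limits the low values, such as GATA1 and KLF1, in a way that cannot be stated.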
